A study of Mus musculus with 24 samples.

Results

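The growth hormone (GH) and insulin-like growth factor (IGF) axis was followed in mouse liver through 9 of the 54733 genes in the deposited tables, taken by name: the receptor *Ghr*, the transducer *Stat5b*, the secreted products *Igf1*, *Igfals*, *Igfbp1* and *Igfbp2*, the feedback inhibitors *Socs2* and *Cish*, and the repressor *Bcl6*. The libraries came from livers of adult male C57BL/6 mice, either wild type (WT) or ΔRRE, a genotype in which both REV-ERB/ROR response elements (RREs) of *Bmal1* were deleted on both alleles by genome editing. The mutant mice were from a single line unless stated otherwise, and all mice were kept in constant darkness before collection. Collection ran every 4 h from CT2 to CT22 (circadian time, in hours), with 2 libraries per genotype at each of the 6 times, which gave 12 groups and 24 libraries of poly(A)-tailed RNA. The labels do not say whether the libraries of a group came from separate animals, so all p-values measure only the spread between these libraries, which may be technical.

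Pituitary GH reaches the liver in pulses, binds the receptor encoded by *Ghr* and activates the kinase JAK2, which phosphorylates STAT5A and STAT5B. These factors bind DNA at the palindrome TTCNNNGAA and induce *Igf1*, *Igfals*, *Socs2* and *Cish*, whereas BCL6 can occupy the same elements as a repressor. The liver secretes most of the circulating IGF-1, which travels with the acid-labile subunit and IGF-binding proteins. The gene of one of these proteins, *Igfbp1*, is induced in fasting and repressed by insulin.

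The expression level was measured in FPKM, the number of fragments scaled by transcript length and by mapped fragments. The number of reads behind a value is unknown, so no counting error can be given. The FPKM of a library summed to between 554170 and 624746. Replicate 1 of ΔRRE at CT10 and replicate 1 of ΔRRE at CT14 stood apart in genes that depend on the sex-specific pattern of GH pulses. Both lay below the other 22 libraries in 3 of 12 male-biased genes, for example *Cyp2d9* at 113 and 112 FPKM against 235 to 559.6 FPKM, and above them in 4 of 14 female-biased genes, for example *Cux2* at 2.06 and 1.01 FPKM against at most 0.148 FPKM. Of all genes tested, 2.47% and 1.81% had both libraries above and below the others. Over the 12 male-biased genes, the mean log2 level was 5.66 and 5.58 in these libraries and 5.78 to 7.59 in the others, with replicate 1 of WT at CT6 lowest. In the blood cell list below, *Hba-a1* was 1014 and 1085 FPKM in these libraries and at most 553 in the others. Their median Spearman's rho with the 23 other libraries was 0.939 and 0.943 across genes, against 0.944 to 0.960 for the rest. No member had both libraries outside the range of the others. Results that change without both libraries are given beside the main value, but not for the blood cell list. This comparison was chosen after the data were seen. The genotype was checked on *Arntl* (*Bmal1*), whose group means ran from 0.143 to 12.9 FPKM in WT and from 2.30 to 3.61 FPKM in ΔRRE. The amplitude of its 24-h wave was 2.57 in WT and 0.29 in ΔRRE on the log2 scale (adjusted p of the rhythm difference = 0.0463, limma). No gene of the 6 marker lists was at 0 in every library. The summed level of 6 hepatocyte markers ran from 37296 to 52005 FPKM in WT and from 34475 to 47884 FPKM in ΔRRE, against 14.1 to 99.9 and 28.8 to 69.7 FPKM for 7 Kupffer cell markers. In whole liver, fewer cells of a type and less RNA per cell cannot be told apart.

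Sequence windows around the annotated starts of the members differed in the short motifs they held. RefSeq windows on GRCm38.p6, 300 bases long with 250 before the transcription start, were found for 8 of the 9 members, 14 windows in all. *Socs2* had no window, so its promoter was not searched. 5 motifs were searched on both strands, a set chosen after the expression values had been seen. These were TTCNNNGAA (a STAT element, also bound by BCL6), CACGTG (the E-box of the clock activators), TAGGTCA (an RRE core), TTATGTAA (a D-box) and CAAAACAA (the core of the insulin response element). No match was found in the windows of *Igf1*, *Ghr* and *Stat5b*. The 11 stretches below hold every match found in the 14 windows, with the motif in capitals.
Cish (chr9:107296654-107296683): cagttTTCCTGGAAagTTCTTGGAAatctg
Bcl6 (chr16:23988952-23988980): agcaaattagTTCTCAGAAttccagaggc
Bcl6 (chr16:23988897-23988922): tcacggagccCACGTGacggcggcgg
Bcl6 (chr16:23981433-23981461): aggccgcggcTTCCTGGAAagttacttct
Bcl6 (chr16:23981387-23981415): ggcaggagtgTTCTGTGAAatccttagag
Bcl6 (chr16:23981353-23981381): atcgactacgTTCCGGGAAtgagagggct
Igfals (chr17:24877598-24877626): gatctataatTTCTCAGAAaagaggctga
Igfals (chr17:24878163-24878191): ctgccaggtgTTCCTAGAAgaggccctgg
Igfals (chr17:24878208-24878234): agccgtcagcTGACCTAgaggtcacag
Igfbp1 (chr11:7197669-7197696): agctcacaagCAAAACAAacttattttg
Igfbp2 (chr1:72824328-72824353): tgtgcacaagCACGTGccctcacgca
*Bcl6* is on the minus strand and the other 4 genes are on the plus strand. *Cish* held a pair of STAT elements side by side, the first of them beginning at the annotated start itself. In *Bcl6*, a STAT element and an E-box lay 118 and 60 bases before one annotated start, and 3 STAT elements 168, 122 and 88 bases before another. In *Igfals*, a STAT element lay 236 bases before one annotated start. A second STAT element and an RRE core on the minus strand lay 58 and 13 bases before another. The *Igfbp1* element lay 108 bases and the *Igfbp2* E-box 142 bases before the start. Of all 32851 windows of this length, 8.30% held the STAT element, 7.15% the E-box, 2.61% the RRE core, 0.938% the D-box and 2.51% the insulin response core. A match describes the letters of the window and is no evidence of binding.

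The 9 transcripts spanned a wide range of levels. *Igfbp2* had the highest mean over the 24 libraries at 369 ± 95.9 FPKM (SD), followed by *Igf1* at 183 ± 19.5 and *Ghr* at 165 ± 28.6 FPKM. *Igfbp1* at 26.8 ± 37.3 and *Igfals* at 25.5 ± 12.5 FPKM came next, then *Bcl6* at 13.2 ± 7.69 and *Stat5b* at 12.1 ± 4.2 FPKM. *Socs2* at 5.91 ± 3.67 and *Cish* at 4.55 ± 4.86 FPKM were lowest. Within each of the pairs *Igf1* and *Ghr*, *Igfbp1* and *Igfals*, *Bcl6* and *Stat5b*, and *Socs2* and *Cish*, the means differed by less than 1 SD.

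**Figure D1:**
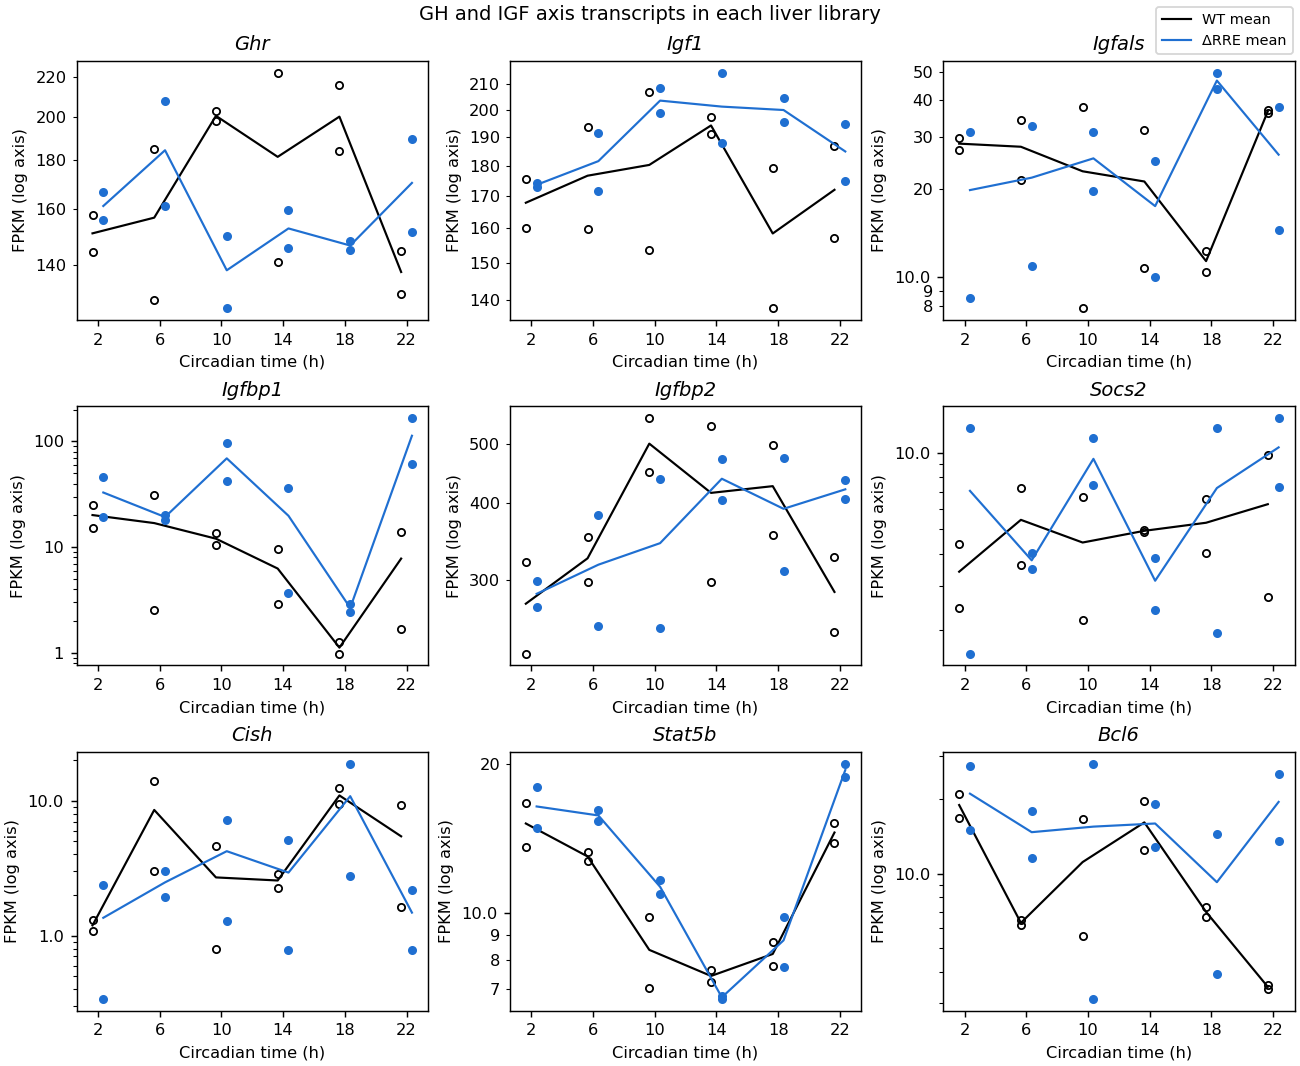
FPKM of each member (log axis) against circadian time in hours; open points are WT libraries, filled blue points are ΔRRE libraries, and lines join the group means. *Stat5b* falls from 20.1 to 6.68 FPKM within ΔRRE with close replicates, whereas *Cish*, *Igfbp1* and *Socs2* libraries of 1 group lie far apart.

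The first question was which members kept a 24-h rhythm and whether the rhythm depended on the *Bmal1* RREs. *Stat5b*, one of the 2 transducers of the GH receptor (chromosome 11, 100780731 to 100850724, minus strand, protein coding), was rhythmic in both genotypes. In WT, *Stat5b* was 16.7 and 13.6 FPKM at CT2, 12.7 and 13.3 at CT6, and 9.79 and 7.01 at CT10. It reached 7.23 and 7.65 at CT14, 8.71 and 7.78 at CT18, and 15.2 and 13.9 at CT22. Every WT library at CT2, CT6 and CT22 thus lay above every WT library at CT10, CT14 and CT18. In ΔRRE, *Stat5b* was 18.0 and 14.9 FPKM at CT2, 15.3 and 16.1 at CT6, and 11.6 and 10.9 at CT10. It reached 6.78 and 6.68 at CT14, 9.82 and 7.75 at CT18, and 18.9 and 20.1 at CT22. The order of high and low times was the same division as in WT. The fitted amplitude (log2, mean to peak) was 0.58 ± 0.074 (SE) in WT, peaking at CT1.72, with an adjusted p of 0.0015 (limma). In ΔRRE it was 0.69 ± 0.103, peaking at CT2.10, with an adjusted p of 0.0069. The test of the rhythm difference gave an adjusted p of 0.9999 (limma).

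*Stat5b* was the only member called rhythmic in each genotype by an adjusted p under 0.05 with a highest group mean over 1.5 times the lowest, 1 of 9 members in WT and 1 of 9 in ΔRRE. Among the 11244 genes tested, this rule called 9.51% in WT and 4.38% in ΔRRE. The study's own looser criteria, with the harmonic p in place of that of BIO_CYCLE, called 4 members in WT (*Igfals*, *Igfbp1*, *Igfbp2* and *Stat5b*) and 3 in ΔRRE (*Igfbp1*, *Igfbp2* and *Stat5b*). Of all genes, 37.0% met these criteria in WT and 35.4% in ΔRRE. A wave fitted jointly to both genotypes was called for 2 of 9 members, *Stat5b* and *Igfbp2*, against 30.6% of all genes. The joint wave of *Stat5b* had an amplitude of 0.64 ± 0.063 with its peak at CT1.93, a 2.42-fold change from trough to peak.

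*Igfbp2*, the most abundant member and a carrier of circulating IGFs (chromosome 1, 72824503 to 72852474, plus strand), had its joint wave near the opposite time. Its amplitude was 0.29 ± 0.091, with a peak at CT14.4 and an adjusted p of 0.0463 (limma). WT *Igfbp2* was 321 and 228 FPKM at CT2, 550.1 and 450.1 at CT10, 534 and 298 at CT14, and 247 and 326 at CT22. In ΔRRE it was 299 and 271 FPKM at CT2, 438 and 251 at CT10, 405 and 472 at CT14, and 406 and 436 at CT22. Near the fitted peak, at CT14, the WT libraries were 1.79-fold apart. The genotypes did not overlap at CT10, where WT was higher, and at CT22, where ΔRRE was higher. The call rested near its limit: the adjusted p exceeded 0.05 in 16 of the 24 fits that left out 1 library, and was 0.230 when the times were fitted as separate levels instead of a wave. It was 0.0776 without both libraries that stood apart.

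*Igfbp1*, whose product binds IGF-1 and whose gene follows fasting and insulin (chromosome 11, 7197782 to 7202546, plus strand), had the largest fitted waves of the members. Their amplitude was 1.5 ± 0.488 in WT, peaking at CT5.56, and 1.21 ± 0.665 in ΔRRE, peaking at CT4.07. The joint wave was 1.33 ± 0.431, with an adjusted p of 0.0573, and without both libraries that stood apart it was 1.46 ± 0.428, with an adjusted p of 0.0375 (limma). With time point as a factor, the adjusted p of the joint time effect was 0.0087. All 4 libraries at CT18 lay at or under 2.92 FPKM, which is the low point of the gene in both genotypes.

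**Figure D2:**
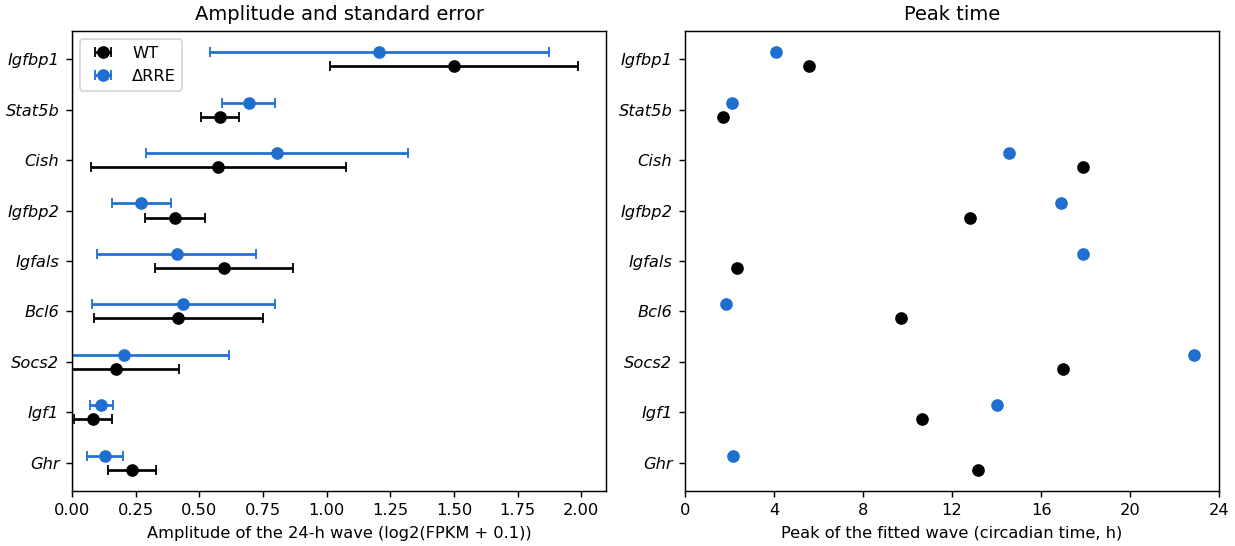
Left, amplitude of the fitted 24-h wave in log2(FPKM + 0.1) with its standard error; right, fitted peak in hours of circadian time, for each member in WT (black) and ΔRRE (blue). *Stat5b* has a short error bar in both genotypes and peaks at CT1.72 and CT2.10, whereas *Ghr*, with no called rhythm, peaks at CT13.2 and CT2.17.

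No member passed the test of a rhythm difference at an adjusted p under 0.05, and 1 gene of 11244 (0.00889%) did. At an unadjusted p under 0.05 the difference named *Ghr* alone, against 2.84% of all genes. *Ghr*, the receptor that starts the pathway (chromosome 15, 3317760 to 3583492, minus strand), was 198 and 203 FPKM in WT at CT10, against 150.2 and 126 in ΔRRE. At CT18 it was 184 and 216 FPKM in WT against 148 and 145 in ΔRRE. At CT22 the order turned, with 130.3 and 145 FPKM in WT against 190 and 151 in ΔRRE. At none of these 3 times did the genotypes overlap. The fitted peak of *Ghr* was at CT13.2 in WT, with an amplitude of 0.23 ± 0.095, and at CT2.17 in ΔRRE, with an amplitude of 0.13 ± 0.072. Neither wave was called, with adjusted p of 0.239 and 0.475, and the adjusted p of their difference was 0.9999 (limma; 0.0254 unadjusted).

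The second question was whether the mean level differed between the genotypes over the 6 times. No member passed at an adjusted p under 0.05 in limma, and 0.0% of all genes did. At an unadjusted p under 0.05, 3 of 9 members passed (*Igfbp1*, *Stat5b* and *Igf1*), all with the higher level in ΔRRE, and 8.91% of all genes passed (7.16% higher and 1.75% lower in ΔRRE). The split of all genes depended on scaling, with 805 higher and 197 lower as deposited and 436 higher and 354 lower of 11219 after rescaling by the median of ratios. Without both libraries that stood apart, 2 of 9 members (*Igfbp1* and *Stat5b*) and 7.11% of all genes passed at an unadjusted p under 0.05. The log2 fold change was above 0 for 6 of 9 members and for 65.5% of all genes, with medians of 0.13 and 0.04.

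*Igfbp1* had the largest difference. In WT it was 25.1 and 15.2 FPKM at CT2, 31.2 and 2.56 at CT6, 10.5 and 13.5 at CT10, 9.65 and 2.91 at CT14, 0.985 and 1.26 at CT18, and 13.9 and 1.69 at CT22. In ΔRRE it was 46.5 and 19.3 FPKM at CT2, 18.2 and 20.3 at CT6, 96 and 42.4 at CT10, 36 and 3.65 at CT14, 2.41 and 2.92 at CT18, and 60.7 and 166 at CT22. The ΔRRE mean was the higher one at 6 of 6 times, and the libraries did not overlap at CT10, CT18 and CT22. The log2 fold change over all times was 1.79 ± 0.490 (SE), 3.45-fold, with an adjusted p of 0.332 (limma) and an exact permutation p of 0.0037 (two-sided, over 46656 divisions of the libraries within each time). Here and below, exact permutation p-values are unadjusted, although all 9 members were tested. Without both libraries that stood apart, it was 1.51 ± 0.511, with an adjusted p of 0.651 (limma) and an exact permutation p of 0.0172 (two-sided, 11664 divisions). At CT22 alone the log2 difference was 4.33 ± 1.14, with an adjusted p of 0.723.

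*Stat5b* differed by a log2 fold change of 0.20 ± 0.073 (adjusted p = 0.444, limma, and exact permutation p = 0.0146, two-sided; 0.0388 without both libraries that stood apart). Its ΔRRE libraries lay above both WT libraries at CT6, CT10 and CT22 and below both at CT14. *Igf1*, the main endocrine product of the axis (chromosome 10, 87858265 to 87937042, plus strand), ran from 138 to 207 FPKM in WT with a median of 177. In ΔRRE it ran from 172 to 214 FPKM with a median of 193. The *Igf1* fold change was 0.13 ± 0.061 on the log2 scale, with an adjusted p of 0.544 (limma) and an exact permutation p of 0.0373 (two-sided), which was 0.108 without both libraries that stood apart. The mean was higher in ΔRRE at 6 of 6 times, but the libraries were apart only at CT18, with 179 and 138 FPKM in WT against 195 and 204 in ΔRRE.

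*Bcl6*, a transcriptional repressor of STAT5 targets (chromosome 16, 23965052 to 23988852, minus strand), was 3.53 and 3.41 FPKM in WT at CT22 against 13.6 and 25.4 in ΔRRE. At CT6 it was 6.16 and 6.46 FPKM in WT against 17.9 and 11.5 in ΔRRE. At the other times the genotypes overlapped, for example at CT10 with 16.6 and 5.61 FPKM in WT and 27.9 and 3.10 in ΔRRE. Over all times the log2 fold change was 0.62 ± 0.336 (adjusted p = 0.624, limma, and exact permutation p = 0.113, two-sided).

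The other members had no difference at an unadjusted p under 0.05. *Igfals*, which encodes the acid-labile subunit (chromosome 17, 24865997 to 24882010, plus strand), had a fold change of 0.06 ± 0.345 on the log2 scale. *Igfals* was 12.3 and 10.4 FPKM in WT against 43.8 and 49.7 in ΔRRE at CT18, and overlapped at the other times. *Socs2* (chromosome 10, 95385362 to 95417180, minus strand) and *Cish* (chromosome 9, 107296026 to 107302784, plus strand) encode SOCS proteins that dampen signalling from the receptor. Their fold changes were 0.25 ± 0.351 and −0.58 ± 0.454, respectively. Leaving out 1 library moved them from 0.068 to 0.42 and from −0.79 to −0.38. *Ghr* was at −0.09 ± 0.103 (−0.14 to −0.047 with 1 library left out) and *Igfbp2* at 0.00 ± 0.136.

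**Figure D3:**
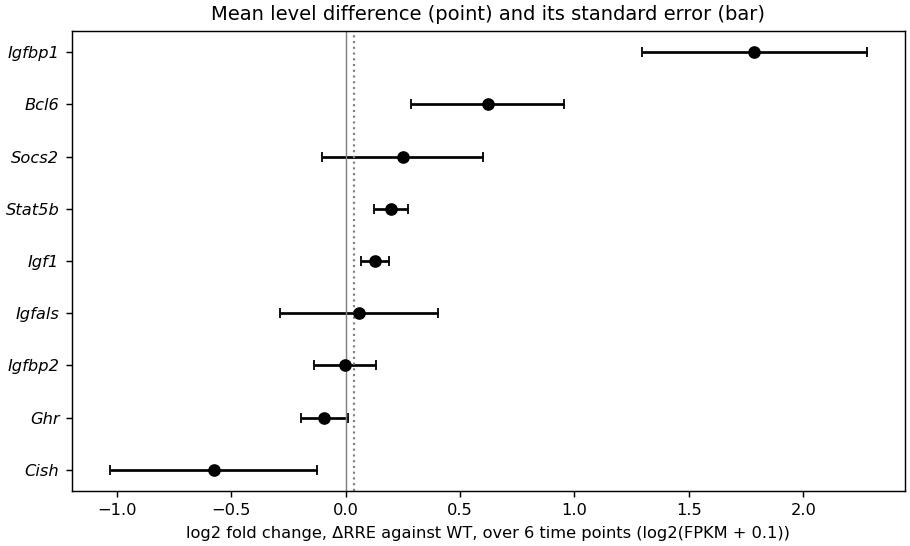
Log2 fold change of ΔRRE against WT over 6 time points (points) with its standard error (bars) for each member; the solid line is 0 and the dotted line the median of all 11244 genes tested, 0.04. *Igfbp1* is the only member beyond 1, at 1.79.

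At single times, none of the 54 pairs of a member and a time passed at an adjusted p under 0.05, and the smallest adjusted p was 0.623 (limma). The same tests called 0.00889% of all genes at CT2 and at CT18, 0.0178% at CT10, 0.0267% at CT14 and 0.0% at CT6 and CT22. 9 pairs passed at an unadjusted p under 0.05: *Ghr*, *Igfbp1* and *Stat5b* at CT10, *Ghr*, *Igf1* and *Igfals* at CT18, and *Igfbp1*, *Stat5b* and *Bcl6* at CT22. At those times 6.16%, 3.61% and 4.66% of all genes passed, and at CT2, CT6 and CT14, with no member, 2.57%, 3.28% and 4.63%. Both ΔRRE libraries were above both WT libraries in 13 of the 54 pairs and below both in 5. Among all genes this held for 19.3% and 11.9% of the pairs.

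The third result concerns the spread between the libraries of a group. Pooled over the 12 groups, the SD of log2(FPKM + 0.1) was 1.37 for *Cish*, 1.31 for *Igfbp1*, 1.01 for *Socs2*, 0.88 for *Bcl6* and 0.87 for *Igfals*. These 5 members each exceeded more than 97% of all genes tested, whose median was 0.25. Without both libraries that stood apart this held for 4 of them, with *Bcl6* at 0.65, above 94.7% of the genes. *Cish*, an early target of STAT5, exceeded 99.3%. *Igf1* and *Stat5b*, both with an SD of 0.15 that exceeded 15.7% of the genes, and *Ghr* (0.22, 39.6%) did not. *Igfbp2* had an SD of 0.35, which exceeded 74.4%. A wide spread was not particular to the members. The median SD was 0.66 over the 12 male-biased and 1.27 over the 4 female-biased GH-dependent genes tested. It was 0.25 over the 14 receptor signalling genes and 0.37 over the 9 other IGF-related genes tested. These lists are described below.

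The 2 libraries of a group differed more than 2-fold in *Cish* in 8 of 12 groups. *Cish* was 3.02 and 14.0 FPKM in WT at CT6, and 1.63 and 9.24 at CT22. In ΔRRE it was 2.37 and 0.339 FPKM at CT2, 5.08 and 0.780 at CT14, and 2.78 and 18.8 at CT18. *Socs2* was 12.5 and 1.62 FPKM in the same ΔRRE group at CT2, and 1.957 and 12.6 in that at CT18, so the higher library was the same one for both genes. *Socs2* passed a 2-fold gap in 5 groups, *Igfbp1* in 7, *Igfals* in 6 and *Bcl6* in 3. No group had such a gap in *Ghr*, *Igf1*, *Igfbp2* or *Stat5b*. *Stat5a*, the partner of *Stat5b*, had nearly the same mean level as *Cish* (4.54 FPKM) and an SD of 0.15. Other genes of similar level had a larger SD, 0.42 for *Igfbp3* (4.88 FPKM) and 0.67 for *Irs2* (3.41 FPKM). The part of expression level in the spread was not tested.

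**Figure D4:**
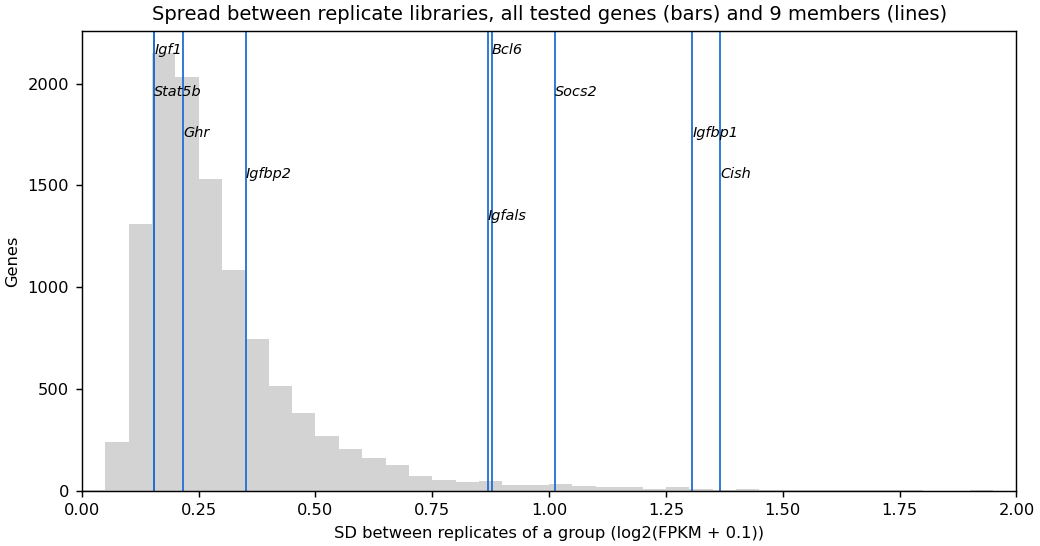
Number of genes (bars) by the SD between the libraries of a group, in log2(FPKM + 0.1), pooled over 12 groups, with the 9 members as vertical lines. *Cish*, *Igfbp1*, *Socs2*, *Bcl6* and *Igfals* lie between 0.87 and 1.37, in the right tail, and *Igf1* and *Stat5b* lie at 0.15.

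To see whether members moved together beyond time and genotype, the differences between replicate 1 and replicate 2 of the 12 groups were correlated for the 36 pairs of members. *Socs2* and *Cish*, both feedback inhibitors, had the largest correlation, with Pearson's r = 0.788 over 12 differences (permutation p = 0.0018, adjusted p = 0.0659) and Spearman's rho = 0.769 (permutation p = 0.0050, adjusted p = 0.0904). The higher library was the same for both genes in 10 of 12 groups. Without the 2 groups farthest from the median *Socs2* difference, r was 0.653. *Cish* and *Bcl6* went in opposite directions in 9 of 12 groups, with r = −0.719 (permutation p = 0.0086, adjusted p = 0.155) and rho = −0.818 (permutation p = 0.0018, adjusted p = 0.0637). Without the 2 groups farthest from the median *Cish* difference, r was −0.668. This kept ΔRRE at CT10, which had the largest *Bcl6* difference (3.13). None of the 36 pairs passed an adjusted p under 0.05 by r, and 3 had an unadjusted permutation p under 0.05, the third being *Igf1* and *Cish* (r = 0.603, permutation p = 0.0381, adjusted p = 0.457). In WT, replicate 2 was the higher library of *Cish*, of *Socs2* and of *Ghr* in 6 of 6 groups, and in ΔRRE in 3, 1 and 2 groups. The replicate number also went with male-biased genes, since replicate 2 was the higher library in at least 10 of 12 groups for 7 of the 12, *Selenbp2* in 12 of 12, against 4.42% of all genes tested. Without the 2 groups of the libraries that stood apart, r of *Socs2* and *Cish* was 0.940 over 10 differences (permutation adjusted p = 0.0036), and 1 of the 36 pairs passed. Within the 6 WT differences r was 0.834 for *Socs2* and *Cish*, and within the 6 ΔRRE differences it was 0.731. For *Cish* and *Bcl6* these values were −0.378 and −0.925.

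**Figure D5:**
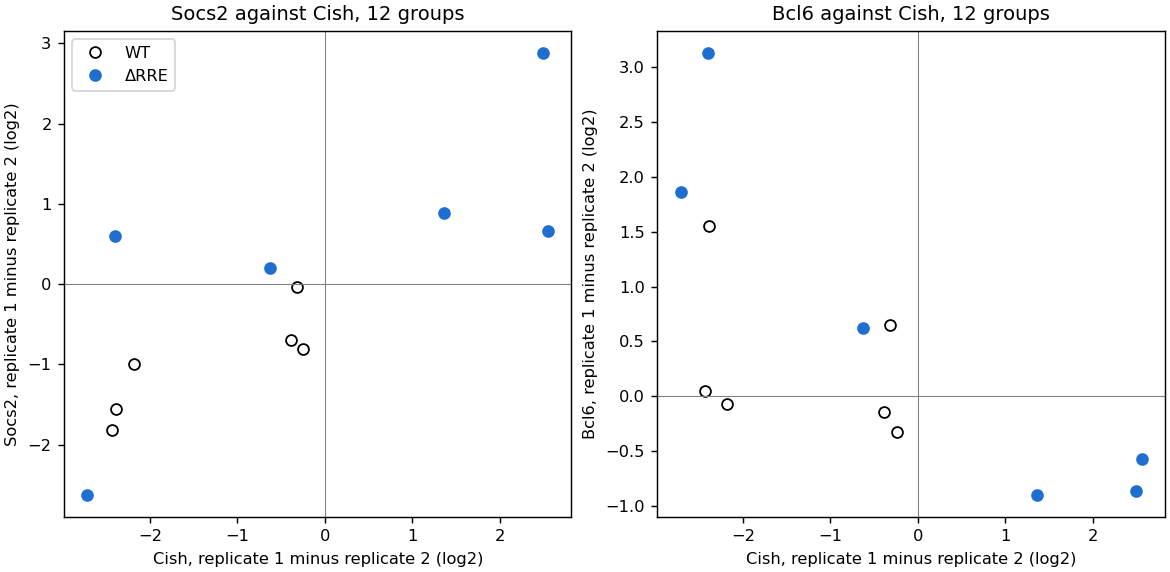
Difference between replicate 1 and replicate 2 on the log2 scale in each of 12 groups, *Cish* on the horizontal axis against *Socs2* (left) and *Bcl6* (right); open points are WT groups and filled blue points ΔRRE groups. *Socs2* follows *Cish* with r = 0.788, and *Bcl6* goes against it with r = −0.719.

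The genes whose pattern was most like that of each member were named from Pearson's r over the 24 libraries, which share their time points and genotypes. Each had the highest or next highest r among the 11244 genes tested, members left out. A search of this size gives a high r for some genes by itself, and no likeness was tested. *Stat5b* was followed most closely by *Rnf125* (r = 0.956) and *Tymp* (0.935). *Igfbp1* was followed by *Ip6k2* (0.886) and *Irs2* (0.858), an adaptor of the insulin receptor. *Cish* went with *Zfp809* (0.845) and *Hhex* (0.781), *Bcl6* with *Arrdc4* (0.818) and *Rhob* (0.736), and *Igfals* with *Rnaseh1* (0.823) and *Dmtf1* (0.648). *Igf1* went with *Cyth2* (0.814) and *Mrm3* (0.707), and *Igfbp2* with *Hsd17b6* (0.780) and *Rrm2* (0.746). *Socs2* went with *Slc25a30* (0.750) and *Mrpl23-ps1* (0.687), the latter a pseudogene by name whose reads may be shared. *Ghr* had the weakest likeness, to *Gstp2* (0.651) and *Gstp1* (0.60), near-identical genes that may also share reads. For some pairs r differed between the genotypes. It was 0.779 in WT and 0.319 in ΔRRE for *Ghr* and *Gstp1*, 0.811 and 0.378 for *Igf1* and *Mrm3*, and 0.457 and 0.807 for *Socs2* and *Mrpl23-ps1*. For others it was close, as for *Stat5b* and *Rnf125* (0.943 and 0.969).

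Other genes around the receptor were counted from a list of 15 signalling genes, of which 14 were tested. A joint rhythm was called for 6 of 14, against 30.6% of all genes. *Stat5a* was among the 6, with an amplitude of 0.43 ± 0.061 and a peak at CT23.6, close to that of *Stat5b*. *Jak2*, the kinase bound to the receptor, had an amplitude of 0.26 ± 0.056 with a peak at CT4.39, and *Sh2b3*, an adaptor that restrains JAK2, 0.30 ± 0.070 at CT11.0. None of the 14 differed in level at an adjusted p under 0.05 (limma).

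A further list of 15 genes held ligands, receptors and binding proteins of the IGFs, together with signalling adaptors such as *Irs2* and other related genes. Of these 15, 9 were tested and 4 had a called joint rhythm, against 30.6% of all genes. *Igfbp3*, the main circulating carrier, had an amplitude of 0.47 ± 0.119 with a peak at CT0.436, and *Igfbp7* 0.28 ± 0.069 at CT0.410. *Igf2r*, the receptor that clears IGF-2, had an amplitude of 0.18 ± 0.051 at CT6.33. In the level test 1 of 9 passed at an unadjusted p under 0.05, against 8.91% of all genes. This was *Irs2*, with a mean of 2.64 FPKM in WT and 4.18 FPKM in ΔRRE and a log2 fold change of 0.56 ± 0.244 (adjusted p = 0.519, limma).

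Genes known to depend on the sex-specific pattern of GH pulses were also counted. All 12 male-biased genes were tested and none differed in level at an unadjusted p under 0.05, against 8.91% of all genes. A log2 fold change above 0 was found for 5 of 12, against 65.5% of all genes. A joint rhythm was called for 1 of 12, against 30.6% of all genes. This was *Elovl3*, a fatty acid elongase, with an amplitude of 2.43 ± 0.280 and a peak at CT23.9. *Hsd3b5* and *Selenbp2* had amplitudes of 0.66 ± 0.307 and 0.71 ± 0.335, which were not called. Of 14 female-biased genes only 4 reached the mean of 1 FPKM needed for the test, in these male livers. *Cyp2a4* had a joint rhythm with an amplitude of 1.63 ± 0.314 and a peak at CT13.0. High values of *Cyp2a4* came from single libraries, with 12.9 and 1.21 FPKM in ΔRRE at CT10, 8.51 and 1.32 in ΔRRE at CT14, and 11.9 and 1.26 in WT at CT14. Without both libraries that stood apart its amplitude was 1.26 ± 0.271 (adjusted p = 0.0052, limma). With all libraries none of the 4 differed in level at an unadjusted p under 0.05. Without both, *Elovl3* and *Cyp2a4* passed this limit, as did 7.11% of all genes. Their log2 fold changes were 0.62 ± 0.274 and −1.14 ± 0.389, with adjusted p of 0.666 and 0.651 (limma).

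Of 12 genes that respond to fasting, insulin or glucocorticoids, 11 were tested and 7 had a joint rhythm, against 30.6% of all genes. In level, 3 of the 11 passed at an unadjusted p under 0.05, against 8.91% of all genes. These were the gluconeogenic *G6pc* and *Pck1*, with log2 fold changes of 0.71 ± 0.185 and 0.69 ± 0.208, and *Pdk4* with 0.62 ± 0.269. All 3 were higher in ΔRRE, as was *Igfbp1*, with adjusted p of 0.332, 0.343 and 0.516 (limma). The joint peak was at CT22.4 for *G6pc* and CT11.2 for *Pck1*. The 3 genes with the smallest joint-rhythm p were *Fkbp5*, *Pdk4* and *Tsc22d3*. Their amplitudes were 1.24 ± 0.146, 1.83 ± 0.232 and 0.87 ± 0.115, with peaks at CT14.3, CT23.5 and CT17.2. *Fkbp5* and *Tsc22d3* did not pass the level test at an unadjusted p under 0.05, with log2 fold changes of 0.06 ± 0.174 and 0.20 ± 0.147. The part of feeding state in the level of *Igfbp1* was not tested. None of the 6 hepatocyte, 7 Kupffer cell, 6 endothelial, 5 stellate and 3 cholangiocyte markers tested passed at an unadjusted p under 0.05. In the blood cell list 2 of 2 genes tested passed, against 8.91% of all genes, and neither passed at an adjusted p under 0.05 (limma). They were the neutrophil gene *S100a9* with a log2 fold change of 1.23 ± 0.490 and the globin gene *Hba-a1* with 0.69 ± 0.289. Both fold changes include the libraries that stood apart. *Hba-a1* was 1014 and 1085 FPKM in those libraries against at most 553 in the others. *S100a9* was 1.59 and 5.91 FPKM in them against at most 3.09 in the others. The summed level of that list of 6 blood cell markers ran from 110.3 to 379 FPKM in WT and from 136 to 1097 FPKM in ΔRRE. This sum was almost wholly *Hba-a1*, which was 109 FPKM in the library with the lowest sum and 1085 FPKM in that with the highest. The part of blood cells in the member values was not tested.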

How the data were processed

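Liver poly(A) RNA was sequenced in 24 libraries, grouped by the genotype, time point and replicate number in their labels. The submitters' processing notes list Trimmomatic 0.39, HISAT2 2.1.0, StringTie 1.3.5 and the build mm10. The authors deposited the FPKM of each gene per library, without pooling replicates; these values keep no read counts, so depth per gene is unknown and count tests were not run. Whether counting used strand is not given in the sources used here. *Igf1*, *Cish* and *Bcl6* overlap genes of the opposite strand, whose mean levels were 0.792 FPKM or less. A series-wide table was not used.

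From the deposited FPKM, log2(FPKM + 0.1) was taken for the 11244 genes whose mean over all libraries reached 1 FPKM. limma 3.58.1 in R 4.3.3 fitted the level difference (genotype with time point as a factor), 24-h waves per genotype, a joint wave, the difference of waves, and each time point, with a prior that follows intensity. P-values were adjusted by the Benjamini-Hochberg method over all genes tested, and fold changes refer to the log2(FPKM + 0.1) scale, which understates changes of low genes. BIO_CYCLE was not run. Members were also tested by exact permutation, without adjustment over the 9 members. Replicate differences were tested by 100000 permutations (SciPy 1.17.1, NumPy 2.4.6, pandas 2.3.3, Python 3.11.15). Figures used matplotlib 3.10.9. The steps were tested on simulated data. No pair of libraries shared more than 0.0424% of values above 0. Gene positions are from GENCODE M21 (GRCm38).

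The 9 members and the gene lists were chosen with earlier results of these data known. Other genes were named by rule. In each list, markers aside, these were the 3 with the smallest joint-rhythm p and the 1 with the smallest level p. For each member they were the 2 with the highest r. The rule also gave *Egfr*, *Trim24*, *Cyp17a1* and *Cyp2b9*, whose fits are not described here. *Pck1*, *Pdk4* (level test), *S100a9*, *Hba-a1*, *Cyp2d9* and *Cux2* were named after their values were seen. The unadjusted level results of the signalling list are not reported here. The alternatives were other constants and filters, rescaled libraries, another prior, the replicate number as a block, time point as a factor, and leaving out each library; leaving out both ΔRRE libraries that stand apart was added after the data were seen.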

Additional observations from a re-analysis of the deposited data

Results flagged for a closer look

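In 4 members the ΔRRE libraries lay above both WT libraries at some times and below both at others, a rule chosen after the values were seen. The difference between times was tested as genotype by time point in limma, with an adjusted p of 0.9999 for each of the 4. *Ghr* was higher in ΔRRE at CT22 and lower at CT10 and CT18 (unadjusted value 0.0434). *Stat5b* was higher in ΔRRE at CT6, CT10 and CT22 and lower at CT14 (0.169). *Igfbp2* was higher at CT22 and lower at CT10 (0.274), and *Socs2* was higher at CT10 and lower at CT14 (0.601).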

How the results depend on the processing

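The depth behind the values is unknown, and 2 libraries per group limit every single-time comparison. The count of members with a level difference, with a rhythm difference or called at a single time stayed at 0 under every alternative run. With no filter on low values, and with a prior without trend, the members with a joint rhythm numbered 1 in place of 2. With time point as a factor, 2 members were rhythmic in WT in place of 1 (*Bcl6* at an adjusted p of 0.0451 and *Stat5b*), and the joint time effect was called for *Igfbp1* and *Stat5b*. Rescaling the libraries moved the median log2 fold change of all genes from 0.04 to 0.00 and turned the amplitude difference of *Socs2* to −0.020.

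Leaving out 1 library gave 1 to 3 members with a joint rhythm, 1 to 2 rhythmic in WT by the adjusted p (2 without replicate 2 of WT CT6 or of WT CT14), 4 to 6 in WT by the study's criteria, and 2 to 5 in ΔRRE by those criteria (5 without replicate 1 of ΔRRE CT6 or CT10). The joint rhythm of *Igfbp1* passed in 8 of 24 such fits. The level difference ranged from −0.10 to 0.22 for *Igfals*, from −0.058 to 0.080 for *Igfbp2* and from 1.46 to 2.04 for *Igfbp1*. The amplitude difference ranged from −0.21 to 0.23 for *Bcl6*, −0.34 to 0.72 for *Cish*, −0.023 to 0.071 for *Igf1*, −0.44 to 0.030 for *Igfals*, −0.90 to 0.050 for *Igfbp1* and −0.16 to 0.39 for *Socs2*. Leaving out a group gave 0 to 1 pairs of members called by replicate differences; the 1 was *Socs2* and *Cish* without ΔRRE CT10 (r = 0.899, permutation adjusted p = 0.0018). The cause of these shifts was not tested. Without replicate 1 of ΔRRE CT10 and CT14, which stood apart in sex-biased genes (added after the data were seen), 1 pair of members was called by replicate differences and the amplitude difference of *Igfbp1* turned to 0.34.

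Deviations of same-numbered libraries correlated from −0.12 to 0.21 across all genes over the 6 times, and not every value was above 0.1, so the numbers were not taken to pair the samples, although male-biased genes went with the number. With the replicate number as a block, 3 members had a joint rhythm, the third being *Igfbp1* (adjusted p = 0.0465, limma), 1 member was rhythmic in WT and 1 in ΔRRE, and 0 differed in level. A mean of at least 5 FPKM left *Cish* untested.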
